A study of Caenorhabditis elegans with 2 samples.

Results

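The 5 genes described here are worm genes known or expected to be transcribed by RNA polymerase III from a promoter that lies outside the transcribed region: the U6 snRNA genes W05B2.8 and F54D8.7, the RNase P RNA gene rpr-1, the RNase MRP RNA gene mrpr-1 and the selenocysteine tRNA gene K11H12.t1. They were chosen by that property of their promoters, with earlier results of these data known, and they are 5 of 46890 annotated nuclear genes. W05B2.8 and F54D8.7 have the highest peaks of the 22 annotated U6 genes, so promoter type alone does not set these copies apart. The study mapped the binding of SNPC-4, a DNA-binding subunit of the complex SNAPc, by chromatin immunoprecipitation and sequencing in first-stage (L1) larvae of Caenorhabditis elegans. Both libraries are biological replicates of 1 group, so no condition is compared. All animals were whole larvae of strain OP179, of pooled sex and unknown age, carrying the allele unc-119(ed3) III and the transgene insertion wgIs179, which expresses SNPC-4 fused to eGFP. The antibody is listed as snpc-4 and the experiment as one against the eGFP fusion. Binding of the tagged protein in a mixture of all larval cell types was therefore measured, and the labels give no promoter or cell type for the transgene. A relaxed list of 30000 peaks exists for either replicate and for both pooled, and a thresholded list of 2347 peaks holds those that passed the authors' test of reproducibility. Read depth is unknown.

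RNA polymerase III genes are usually grouped by where their promoter lies. Most tRNA genes carry it inside the transcribed region, as an A box and a B box read by the factor TFIIIC. The so-called type 3 genes instead carry it upstream: in vertebrates a proximal sequence element bound by SNAPc (the small nuclear RNA activating complex), followed by a TATA box. The same complex also serves the snRNA genes of RNA polymerase II, which have the proximal sequence element and no TATA box, and in nematodes it is known at the spliced leader (SL) RNA genes as well. The transcripts of the type 3 genes are parts of basic RNA machines. U6 pairs with the 5′ splice site in the catalytic core of the spliceosome, RNase P trims the 5′ ends of precursor tRNAs, RNase MRP cuts precursor ribosomal RNA, and the selenocysteine tRNA reads a UGA codon in selenoprotein messages.

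The 100 bases before the annotated 5′ end hold the features that these genes share, and are shown for all of them except rpr-1. The sequence before rpr-1 is not reported here, and the positions of its features are given below. Capitals mark the pair AACC and GTC with 7 or 8 bases between, here termed the distal element, and the word TATAA, here termed the proximal word. Sequences are from the reference genome (build ce11, from RefSeq), 5′ to 3′ on the strand of the gene. The windows are chrIII:10989579-10989678 for W05B2.8 (plus strand), chrIII:5080899-5080998 for F54D8.7 (minus strand), chrII:7200133-7200232 for mrpr-1 (plus strand) and chrIV:658081-658180 for K11H12.t1 (plus strand).
W05B2.8: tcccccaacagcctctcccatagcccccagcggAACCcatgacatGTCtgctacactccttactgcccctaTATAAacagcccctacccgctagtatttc
F54D8.7: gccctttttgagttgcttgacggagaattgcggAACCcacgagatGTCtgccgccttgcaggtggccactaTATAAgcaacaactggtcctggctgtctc
mrpr-1: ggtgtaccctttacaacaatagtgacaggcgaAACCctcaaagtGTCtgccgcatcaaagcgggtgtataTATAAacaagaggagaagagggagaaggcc
K11H12.t1: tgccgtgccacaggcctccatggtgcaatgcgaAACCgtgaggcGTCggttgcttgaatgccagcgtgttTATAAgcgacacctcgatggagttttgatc

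Aligned base by base from the 5′ end of the gene, the U6 genes W05B2.8 and F54D8.7, whose capitals stand in register, had the same base at 50 of 100 positions. The spacing of the capitals was nearly fixed. With negative positions counted back from the annotated 5′ end, AACC began at position -67 in W05B2.8, F54D8.7 and K11H12.t1, at -66 in rpr-1 and at -68 in mrpr-1. TATAA began at -29 in both U6 genes, at -28 in rpr-1 and at -30 in mrpr-1 and K11H12.t1. Between GTC and TATAA lay 23 bases in all 5 genes, although the bases between AACC and GTC numbered 7 in K11H12.t1 and 8 in the others.

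For comparison, the same window is shown for a pair of genes with strong peaks that RNA polymerase II transcribes: sup-6, a U1 snRNA gene (chrII:12944968-12945067, minus strand), and sls-2.8, an SL2 RNA gene (chrIII:12250365-12250464, plus strand).
sup-6: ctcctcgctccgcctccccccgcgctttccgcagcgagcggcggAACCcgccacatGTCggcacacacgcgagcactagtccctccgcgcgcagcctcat
sls-2.8: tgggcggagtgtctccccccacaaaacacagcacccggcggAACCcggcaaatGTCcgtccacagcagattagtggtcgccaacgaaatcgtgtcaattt

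Both hold the distal element, with 8 bases between AACC and GTC, and neither holds TATAA anywhere in the window. Their AACC began nearer to the gene, at -56 in sup-6 and -59 in sls-2.8. Their peaks were of the same order as those of the 5 genes, with a signal of 3960 (rank 9) at sup-6 and 4725 (rank 5) at sls-2.8 in the thresholded list. The distal element was thus found at strong peaks of both polymerases, and the proximal word in place only at the polymerase III genes of these 7.

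SNPC-4 peaks stood at all 5 genes. As the genes were chosen with earlier results of these data known, the counts below are a description. A summit within 250 bp of the annotated 5′ end was found for 5 of 5 in the thresholded list, where 3.86% of all annotated genes had one. It was found for 5 of 5 in the pooled relaxed list (21.8% of all genes), in replicate 1 (20.8%) and in replicate 2 (21.0%). Signal is the authors' enrichment value of a peak, its scale is not stated, and it is compared only within a list. The median signal of a thresholded peak was 53.3, and the lowest of the 5 genes had 1646.

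W05B2.8, a U6 gene of 102 bp (chrIII:10989679-10989780, plus strand), had the highest peak of the thresholded and the pooled lists, with a signal of 6125. Its signal was 2387 in replicate 1, where it ranked 2, and 3843 in replicate 2, where it ranked 1. It was thus at or next to the top of every list. The RNase P RNA gene rpr-1, of 253 bp, had a signal of 4721 (rank 6) in the thresholded and pooled lists, 1806 (rank 7) in replicate 1 and 2945 (rank 6) in replicate 2. It was the only other one of the 5 genes among the 10 highest peaks.

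The remaining 3 genes had lower peaks of similar height. The RNase MRP RNA gene mrpr-1, of 186 bp (chrII:7200233-7200418, plus strand), had a signal of 2495 (rank 23) in the thresholded and pooled lists, 984 (rank 24) in replicate 1 and 1527 (rank 23) in replicate 2. The selenocysteine tRNA gene K11H12.t1, of 86 bp (chrIV:658181-658266, plus strand), had 2229.8 (rank 27), 886 (rank 27) and 1355 (rank 26) in the same order of lists. F54D8.7, a U6 gene of 101 bp (chrIII:5080798-5080898, minus strand), had 1646 (rank 37), 721 (rank 32) and 977 (rank 37). Some of the peaks above them are mitochondrial, and among nuclear peaks of the thresholded list the 5 genes ranked 1, 6, 21, 24 and 34.

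The order of the 5 genes by signal was the same in both replicates. Relative to the highest peak of its list, W05B2.8 stood at 98.5% in replicate 1 and 100% in replicate 2, rpr-1 at 74.5% and 76.6%, and mrpr-1 at 40.6% and 39.7%. K11H12.t1 stood at 36.6% and 35.3%, and F54D8.7 at 29.8% and 25.4%. The steps from W05B2.8 to rpr-1 (24 percentage points in replicate 1 and 23.4 in replicate 2) and from rpr-1 to mrpr-1 (33.9 and 36.9) were larger than the difference between replicates of these genes, at most 2.1 points. From mrpr-1 to K11H12.t1 the step was 4.05 points in replicate 1 and 4.46 in replicate 2, against replicate differences of 0.89 and 1.3 points. From K11H12.t1 to F54D8.7 it was 6.8 and 9.84 points, against replicate differences of 1.3 and 4.3. With 2 replicates no further error can be given.

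**Figure D1:**
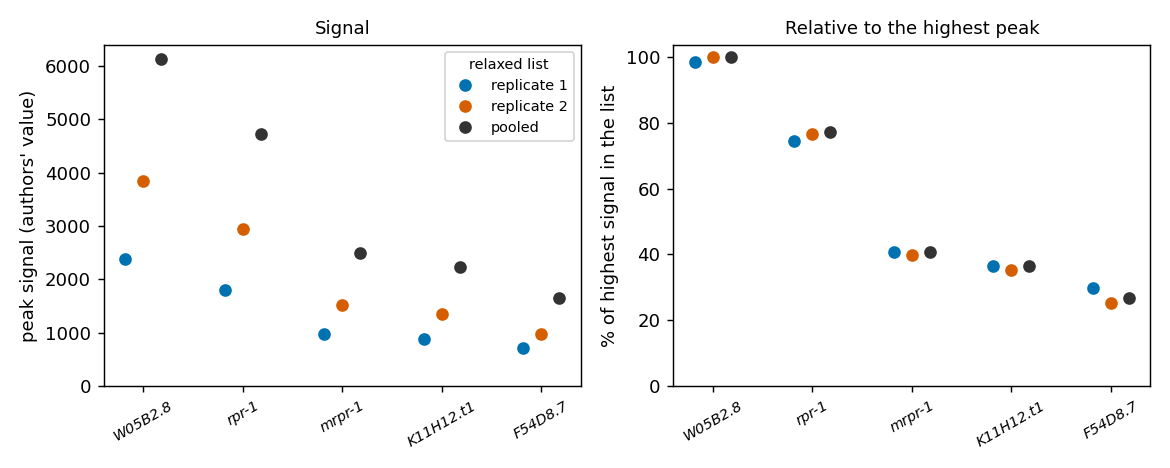
Peak signal (left, the authors' value) and the same signal as a percent of the highest peak in its list (right) for the 5 genes, with 1 point for each relaxed list (replicate 1, replicate 2 and pooled). Signals differ in height between lists, but each gene's share of the highest peak differs by at most 4.3 points between the replicates. The shares run from 98.5% and 100% at W05B2.8 to 29.8% and 25.4% at F54D8.7. W05B2.8 is itself the highest peak in replicate 2 and in the pooled list, so its 100% there is fixed.

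The 5 peaks held 5.67% of the summed signal of the thresholded list, 2.21% of that of replicate 1 and 2.79% of that of replicate 2. Signal was higher in replicate 2 than in replicate 1 at all 5 genes, by 1.61-fold at W05B2.8, 1.35-fold at F54D8.7, 1.63-fold at rpr-1, 1.55-fold at mrpr-1 and 1.53-fold at K11H12.t1. Over the 1228 thresholded peaks near a gene start with a peak in both replicates, the median ratio was 1.3 and the quartiles were 0.936 and 1.72. The ratios of the 5 genes lay within those quartiles, so they followed the general difference in signal between the lists.

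**Figure D2:**
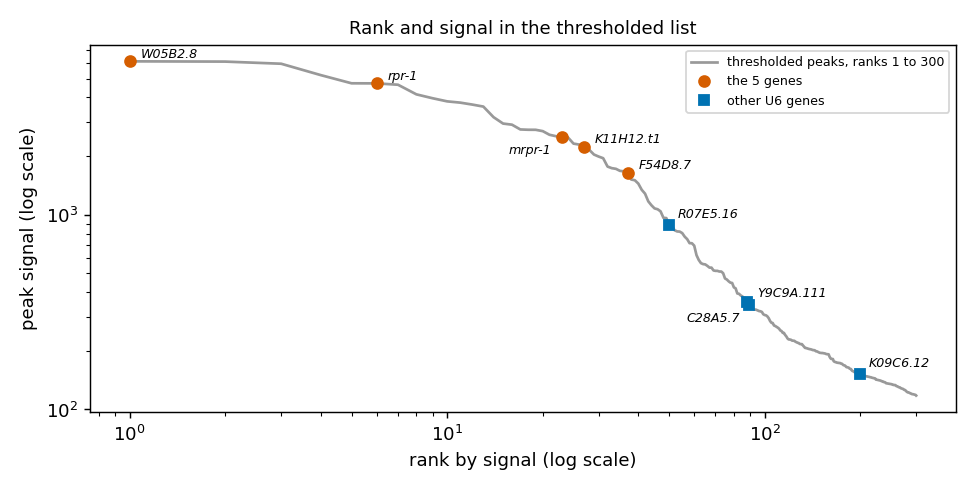
Signal against rank for the 300 highest thresholded peaks (both axes on a log scale), with the 5 genes as circles and other U6 genes as squares. The 5 genes, chosen with earlier results of these data known, lie between rank 1 and rank 37, above the highest other U6 gene at rank 50.

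Summits lay upstream of all 5 genes in every list. In the thresholded list the offset from the 5′ end was -55 bp at W05B2.8, -48 bp at F54D8.7, -25 bp at rpr-1, -37 bp at mrpr-1 and -57 bp at K11H12.t1, with a median of -48 bp. In replicate 1 the offsets were -61, -49, -44, -37 and -65 bp in that order of genes, and in replicate 2 they were -55, -56, -25, -41 and -69 bp. The replicates placed the summit within 6 bp of each other at W05B2.8, 7 bp at F54D8.7, 19 bp at rpr-1, 4 bp at mrpr-1 and 4 bp at K11H12.t1. The median distance over the 1228 peaks above was 24 bp, and all 5 distances were shorter than that.

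Set against the shared sequence, the summit lay 5 bp downstream of the centre of the distal element at W05B2.8, 12 bp at F54D8.7, 34 bp at rpr-1, 24 bp at mrpr-1 and 3 bp at K11H12.t1. At W05B2.8, F54D8.7 and K11H12.t1 it was nearer to the distal element than to the first base of TATAA, and at rpr-1 and mrpr-1 it was nearer to TATAA. At rpr-1 the replicates themselves differed by 19 bp, and in replicate 1 its summit lay between both features.

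**Figure D3:**
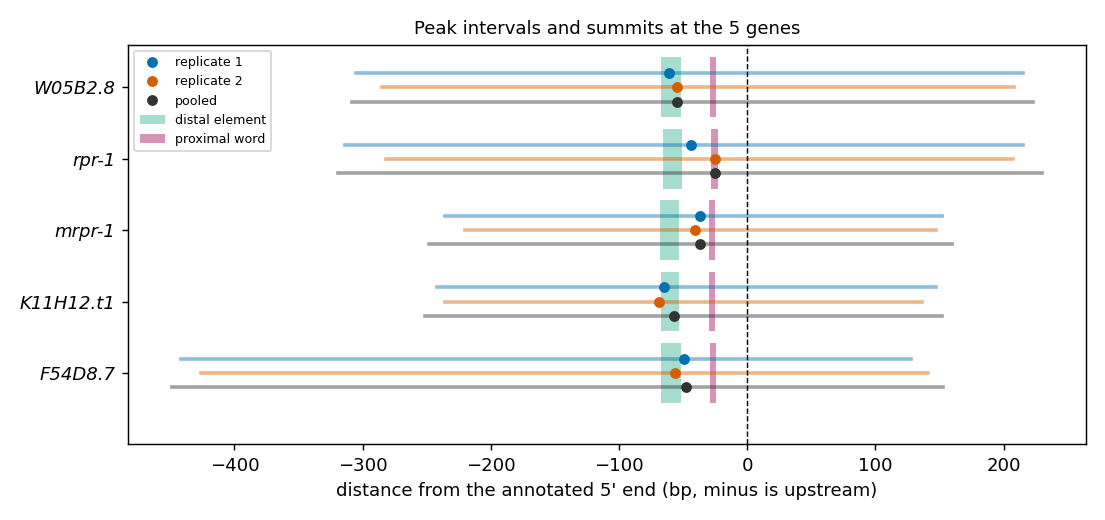
Peak interval (line) and summit (point) of each relaxed list at the 5 genes, in bp from the annotated 5′ end, with the distal element and the proximal word shaded. All summits fall between positions -69 and -25, and the intervals reach farther upstream than downstream at all 5 genes.

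Peaks at the 5 genes were wide. Most thresholded peaks (1922 of 2347) have the same width of 344 bp, while those of the 5 genes spanned 603 bp at F54D8.7, 550 bp at rpr-1, 532 bp at W05B2.8, 409 bp at mrpr-1 and 404 bp at K11H12.t1. In that order they ranked 6, 8, 9, 35 and 39 by width. Wide peaks were not particular to them, with 409 bp at the U6 gene R07E5.16. The median width was 377.5 bp at SL RNA genes with a summit and 307 bp at other U6 genes with a summit. Width did not follow signal, as the widest of the 5 peaks belonged to the gene with the lowest signal. That peak reached from position -449 to 153, so most of its extra width lay upstream of F54D8.7. At W05B2.8 the interval ran from -308 to 223 and covered the gene.

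Of the 5 genes, 3 lie inside introns of protein-coding genes. W05B2.8 lies on the same strand in an intron of 360 bp (chrIII:10989475-10989834) of dhc-4, a dynein heavy chain gene. K11H12.t1 lies on the same strand in an intron of 318 bp (chrIV:658019-658336) of K11H12.8. The gene for RNase P RNA lies at chrI:13463955-13464207 on the plus strand, in an intron of 2023 bp of ints-8, which runs the other way and encodes a subunit of the Integrator complex. In each case the summit fell in the same intron as the gene. The hosts dhc-4 and K11H12.8 had no thresholded summit within 250 bp of their own 5′ ends, and ints-8 had a peak there of signal 52.7 at an offset of -45 bp.

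The other genes of the 5 lie between genes. F54D8.7 has alh-1, an aldehyde dehydrogenase gene, 137 bp downstream on the opposite strand, and cox-6A, a cytochrome c oxidase subunit gene, 826 bp upstream on the opposite strand. mrpr-1 has pcrg-1 131 bp downstream on the same strand and E04F6.6 668 bp upstream on the opposite strand. None of these 4 neighbours had a thresholded summit within 250 bp of its 5′ end. Few other peaks lay near. Another thresholded peak lay within 5 kb at F54D8.7 (2666 bp downstream, signal 56.0) and at K11H12.t1 (3194 bp upstream, signal 465, rank 76). The peak near K11H12.t1 stood between the ribosomal protein gene rpl-15 and the 5′ end of the host K11H12.8, more than 250 bp from either start. No thresholded peak lay that near to W05B2.8, rpr-1 or mrpr-1. In the pooled relaxed list the highest other peak within 5 kb had a signal of 29.8 at W05B2.8, 17.8 at rpr-1 and 25.3 at mrpr-1.

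The shared sequence was searched for in the 100 bases before all 46890 genes. The distal element on the gene's strand was present before 269 genes (0.574%), or before 408 (0.870%) when either strand was allowed. TATAA on either strand is common, with 29.3% of all genes, and TATAA starting between positions -40 and -20 stood before 7.12%. On either strand TATAAA, which contains TATAA, stood before 17.5% of all genes and before W05B2.8, mrpr-1 and K11H12.t1. TATATA stood before 5.07% and before all of the 5 genes except K11H12.t1. The combination of the distal element with TATAA starting 15 to 30 bases after GTC was present before 20 genes (0.0427%), of which 5 are the genes described here. The definition of the distal element and of the combination was chosen after these sequences were seen, so its presence in the 5 genes is a description.

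Among the other snRNA, SL RNA and SmY genes with a thresholded summit (54 genes, 6 of them U6), the most frequent 8-base words upstream were CGGAACCC and GGAACCCG, each in 18 windows (33.3%). The SmY genes smy-2 and smy-3 are annotated as snoRNA and were counted with the snoRNA genes, not here. Both words overlap the distal element by the letters AACC. On either strand, CGGAACCC stood before 0.166% of all genes and before W05B2.8, F54D8.7 and rpr-1. GGAACCCG stood before 0.177% of all genes and, of the 5, before rpr-1.

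Genes that hold these words were set beside their peaks. A thresholded summit within 250 bp of the 5′ end was found at 9 of the 15 other genes with the combination (60.0%). It was found at 67 of 249 genes with the distal element and no TATAA in place (26.9%), and at 1730 of 46621 genes without the distal element (3.71%). The median signal of the genes with a summit was 152, 334 and 55.8 in the same order. Among the genes with the combination, 17 had exactly 23 bases between GTC and TATAA, and 12 of these are other genes, 9 with a thresholded summit (75%). The remaining 3, with 19, 26 and 29 bases between, are protein-coding genes, and 0 had a thresholded summit. Of the 15 other genes with the combination, 7 are U6 genes. Several of the genes with these words share parts of their upstream sequence, so they are not independent of each other. The words and their spacing were chosen after the data were seen, so these shares are a description.

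The place of the distal element differed between classes of genes. Among snRNA genes other than U6, 22 of 67 held the element, 16 of them with a thresholded summit. In those 16, AACC began at a median position of -57.5 and a range of -71 to -55, and 0 of the 22 had TATAA starting 15 to 30 bases after GTC. Among SL RNA genes 9 of 30 held it, 7 with a summit, and in all 7 AACC began at -59. The 9 U6 genes outside the 5 that held the element had AACC at -67 to -66, as in the 5 genes. Among genes annotated as snoRNA with a summit 23 held the element, with a median of -60 and a wide range of -89 to -54. Of these, 2 had the combination, and smy-2 and smy-3 are SmY genes by name. Which polymerase transcribes the snoRNA genes was not measured.

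**Figure D4:**
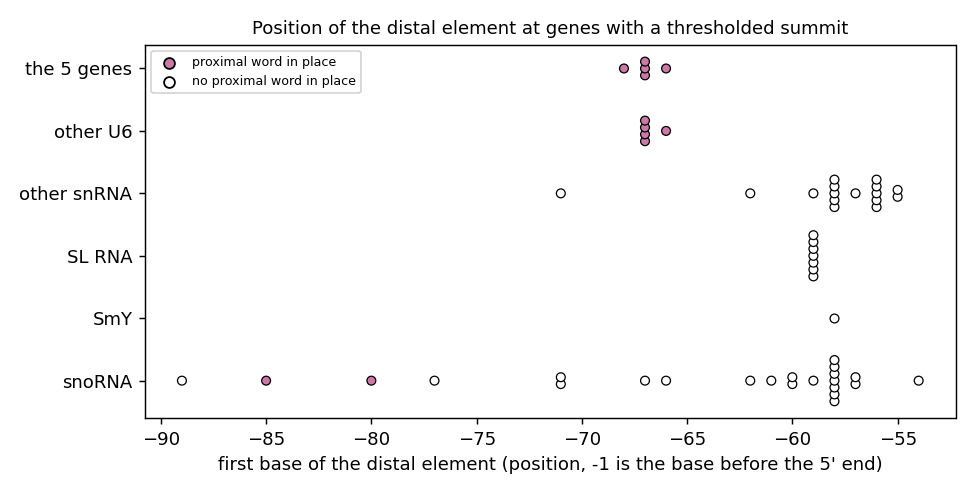
Position of the first base of the distal element at genes that hold it and have a thresholded summit, by class, with filled points where the proximal word starts 15 to 30 bases after it. The 5 genes and the other U6 genes lie between -68 and -66, while SL RNA genes all lie at -59 and most other snRNA genes between -59 and -55.

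The median offset of the thresholded summit was -48 bp over the 5 genes, -64 bp over 6 other U6 genes and -55 bp over 30 other snRNA genes. It was -53 bp over 14 SL RNA genes and -56 bp over 85 genes annotated as snoRNA. The 100 other tRNA genes with a summit had a median of -27 bp with quartiles at -42 and 2 bp, closer to or inside the gene. The offset of K11H12.t1, at -57 bp, lay outside those quartiles, on the upstream side. So did those of W05B2.8 (-55 bp) and F54D8.7 (-48 bp), while rpr-1 (-25 bp) and mrpr-1 (-37 bp) lay inside them.

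RNA polymerase III stops at a run of T, and a run of at least 4 began within 50 bases of the 3′ end of all 5 genes, as it did for 61.0% of all genes. The run began at base 8 after W05B2.8, base 1 after F54D8.7, base 31 after rpr-1, base 9 after mrpr-1 and base 2 after K11H12.t1. Such a run followed 19 of the 20 other U6 genes and 98.9% of other tRNA genes. It followed 52.2% of other snRNA genes and 36.7% of SL RNA genes, but 69.7% of genes annotated as snoRNA and 9 of 10 SmY genes. A run of T was thus not particular to the U6 and tRNA genes. At rpr-1 the first run lay farther from the annotated 3′ end than at the other 4 genes.

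U6 is encoded by 22 annotated genes. The annotated sequence of W05B2.8 is identical in 14 of them, and that of F54D8.7 in 3 of slightly shorter annotation. Both sequences have 17 exact copies in the genome. Reads inside the transcript therefore cannot be placed at 1 copy, and values at the start rest on the sequence beside it. Of the words of 36 bases in the 250 bp upstream of the 5′ end, 100% occur once in the genome at W05B2.8, F54D8.7, rpr-1, mrpr-1 and K11H12.t1. Within 250 bp on both sides the share is 84.5% at W05B2.8 and 83.7% at F54D8.7, and 100% at the other 3. The sources used here do not give how reads that match several copies were placed.

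A thresholded summit near the start was found at 8 of the 22 U6 genes. W05B2.8 (6125) and F54D8.7 (1646) had the highest signals, followed by R07E5.16 with 887 (rank 50), C28A5.7 with 357 (rank 88), Y9C9A.111 with 345 (rank 89) and K09C6.12 with 152 (rank 199). F54C8.10, with 62.2 (rank 918), and T08B6.62, with 56.2 (rank 1086), were near the median of all thresholded peaks. The order of W05B2.8, F54D8.7 and R07E5.16 was the same in both replicates. In replicate 1, R07E5.16 had 349, Y9C9A.111 157, C28A5.7 120 and K09C6.12 57.8, and in replicate 2 they had 534, 190, 234 and 94.2, so that Y9C9A.111 and C28A5.7 stood in opposite order. The signal of T08B6.62 was 14.2 (rank 2762) in replicate 1 and 41.8 (rank 694) in replicate 2. The summits of the 6 other U6 genes lay at -71 to -57 bp, except that of F54C8.10 at -24 bp.

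The upstream sequences of 4 U6 genes with a lower or no peak are shown for comparison with those of W05B2.8 and F54D8.7. R07E5.16 (chrIII:4414085-4414184, plus strand), Y9C9A.111 (chrIV:4930854-4930953, plus strand) and T08B6.62 (chrIV:4885650-4885749, minus strand) had a thresholded summit. K09B11.12 (chrIV:13438997-13439096, plus strand) had a summit in none of the lists.
R07E5.16: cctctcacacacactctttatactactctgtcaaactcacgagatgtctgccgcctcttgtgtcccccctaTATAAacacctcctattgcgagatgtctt
Y9C9A.111: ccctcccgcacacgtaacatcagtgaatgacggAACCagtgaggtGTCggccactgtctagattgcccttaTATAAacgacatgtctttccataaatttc
T08B6.62: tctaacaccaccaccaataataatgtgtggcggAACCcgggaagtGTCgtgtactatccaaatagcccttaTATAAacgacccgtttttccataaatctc
K09B11.12: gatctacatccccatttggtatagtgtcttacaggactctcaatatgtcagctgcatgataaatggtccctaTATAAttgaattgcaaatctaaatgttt

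R07E5.16, next after F54D8.7 among the U6 genes by signal, has TATAA at -29 and no match to the distal element as spelled here. It reads AACT in place of AACC, with 8 bases before GTC, so only the exact spelling is missed. Its upstream window had the same base as that of C28A5.7, which has the match, at 71 of 100 positions. Of the 8 U6 genes with a thresholded summit, 7 hold the combination, and of the 14 without, 2 do: Y17G9A.85, with a pooled relaxed peak of 31.8 (rank 2393) at -55 bp, and Y17G9A.90, with a summit in none of the lists. Both have 100% unique upstream words. The combination is thus present at U6 genes from the highest peak to none, and the letters given do not order them.

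The 6 copies named K09B11.11 to K09B11.16, which share the transcript of W05B2.8, had a summit in none of the lists. All have TATAA at -28 and none matches the distal element as spelled here. K09B11.11, K09B11.14 and K09B11.16 read AACT in place of AACC, with 8 bases before GTC, so they miss only the exact spelling. Their upstream windows had the same base as each other at 71 to 97 positions of 100. Only 25.6% to 60.5% of their upstream words occur once in the genome. The share was 90.7% to 100% at the 8 U6 genes with a thresholded summit, and 25.6% to 100% with a median of 57.9% at the 14 without. What part the placing of reads had in the missing peaks was not tested.

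**Figure D5:**
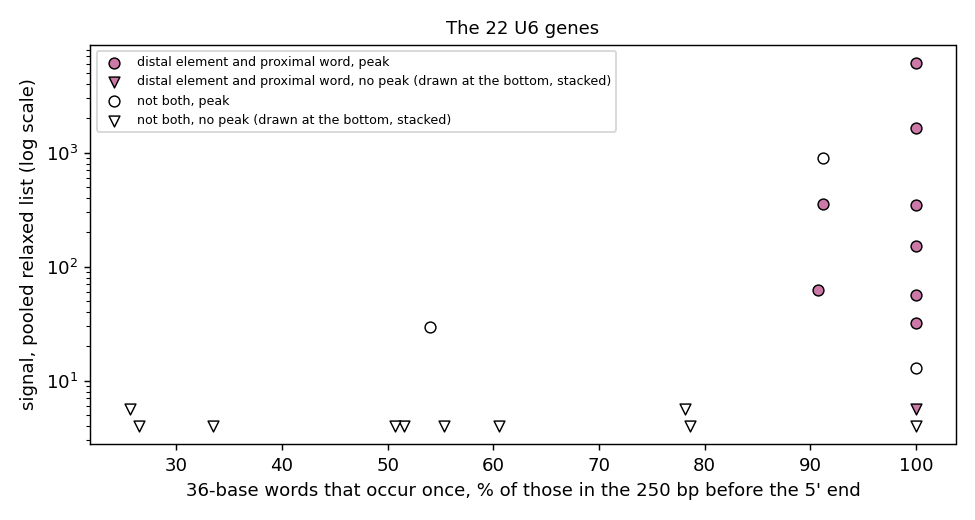
Signal in the pooled relaxed list (log scale) against the percent of 36-base words that occur once in the genome in the 250 bp before the 5′ end, for the 22 U6 genes; triangles at the bottom have no pooled peak. W05B2.8 (6125) and F54D8.7 (1646) are the highest points at 100%, and 9 of the 11 genes without a pooled peak lie under 80%.

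The selenocysteine tRNA gene is shown next with its B box, the inner promoter element of other tRNA genes, in capitals.
K11H12.t1 gene: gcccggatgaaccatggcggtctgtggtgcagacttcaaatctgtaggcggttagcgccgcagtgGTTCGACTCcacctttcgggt

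The letters of the B box (GTTC, A or G, A, any pair of bases, C) were present in K11H12.t1 and in 586 of 611 other tRNA genes (95.9%). Upstream, the distal element was present before 6 other tRNA genes (0.982%), and 0 of the 611 had the combination. Of the 611, 100 (16.4%) had a thresholded summit, with a median signal of 50.3. The signal of K11H12.t1, 2229.8, was the highest of any tRNA gene, before M01E5.t1 with 1040.0 (rank 47, offset -71 bp), C27A2.t1 with 832 (rank 52, -18 bp) and ZC412.t1 with 308 (rank 99, -7 bp). K11H12.t1 thus stood above other tRNA genes in signal. It alone of the tRNA genes had the combination of the distal element and TATAA, which 9 of the 22 U6 genes hold.

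Other RNAs made by polymerase III, not sorted here by type of promoter, had lower peaks or none. The Y RNA gene yrn-1, for a small RNA bound by the Ro protein, had a signal of 108 (rank 357, offset -51 bp), with rank 541 in replicate 1 and 303 in replicate 2. That offset lies within the range of the 5 genes in the thresholded list, -57 to -25 bp. The signal recognition particle RNA genes srpr-1.1 and srpr-1.2 had no thresholded summit, and in the pooled relaxed list they ranked 4271 and 4864 with summits 63 and 164 bp inside the gene. Of the 14 rRNA genes of 5S size, 0 had a summit in the thresholded or the pooled list.

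Genes for proteins that work with these RNAs were set beside all genes, of which 3.86% had a thresholded and 21.8% a pooled relaxed summit. Of 15 matched genes for SNAPc and the polymerase III machinery, 2 had a thresholded summit (13.3%): tftc-1, a TFIIIC subunit gene, with 54.2 (rank 1136, -138 bp), and snpc-3.4, a SNAPc subunit gene, with 38.6 (rank 1867, -11 bp). snpc-4 itself had none. Of 11 matched genes for U6 proteins and modifiers, 1 had a summit (9.09%): lsm-7, of the LSM ring that binds the 3′ end of U6, with 65.7 (rank 834, -222 bp). Of 4 matched genes for the use of selenocysteine, among them trxr-1, the thioredoxin reductase that carries selenocysteine in the worm, 0 had one. In the pooled relaxed list the counts were 4 of 15, 5 of 11 and 1 of 4. The 3 thresholded signals were close to the median thresholded signal of 53.3, far under the 1646 of the lowest of the 5 RNA genes.

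The non-coding genes most like each of the 5 in rank were found by the smallest summed difference of log2 rank over the pooled, replicate 1 and replicate 2 relaxed lists. For W05B2.8 these were Y53F4B.47, a snoRNA gene with ranks 2, 3 and 2 (a difference of 2.58), and R12E2.18 with ranks 3, 1 and 3 (4.17). The summit at R12E2.18 lay 155 bp downstream of its 5′ end, and its signal of 5954.6 is also the highest signal listed for an SL RNA gene. For rpr-1 they were the SL2 RNA gene sls-2.8 and Y75B8A.49, which share a peak with ranks 5, 5 and 7 (0.971). For mrpr-1 they were the snoRNA gene T26A8.6 (0.19) and Y55F3BR.17 (0.252), and for K11H12.t1 the snoRNA gene Y74C9A.6 (0.163) and W04D2.14 (0.264). For F54D8.7 they were K07C10.2 and K07C10.6, which share a peak (0.207). The likeness is in rank alone, over 2 replicates and their pool.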

How the data were processed

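ChIP-seq peak lists of 2 biological replicates of 1 group were analysed. The labels give a fragment size of 150 to 350 bp. The authors built the relaxed lists by setting alignments against those of a control, and the thresholded list from them by the irreproducible discovery rate, per the deposited notes. Aligner and peak caller: not given in the sources used here. The deposited signal of a peak is the authors' enrichment value. The deposited −log10 q-value was at most 2.95, so peaks were ranked by signal. A deposited summit is a distance in bp from the peak start, given as another column, per the file layout.

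Build ce11 was used. 5′ ends came from Ensembl 115 (WBcel235), names and sequences from RefSeq by WormBase ID (46881 of 46890 genes). A gene was counted where a summit lay within 250 bp of its 5′ end. U6 genes were taken by the annotated class and a short word in the transcript, and the transcript sequence is not reported here. Words of 36 bases were counted on both strands of the genome. No test was made: both samples belong to 1 group, and genes are not replicates. With no read numbers, no counting error can be given.

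The genes described and the lists of genes were chosen with earlier results of these data known. The distal element, its combination with TATAA, the signal recognition particle RNA genes and the percent of the highest signal were added after the data were seen. Genes named besides the 5 are other U6 genes with a thresholded summit, neighbours, members of the lists with a summit, and the pair of non-coding genes nearest in rank to each; others were chosen after their values were seen. Names not matched to the annotation were snpc-1.5, lsm-2 and selb-1. On simulated data, 200 of 200 planted peaks were recovered among 2000 features, and planted words were found in 200 of 200 sequences. Python 3.11.15, numpy 2.4.6, pandas 2.3.3, Biopython 1.88 and matplotlib 3.10.9 were used.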

Additional observations from a re-analysis of the deposited data

How the results depend on the processing

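A summit was found at 5 of the 5 genes under every alternative run: windows of 100 and 500 bp, overlap of the peak interval in place of the summit, the 1173 highest thresholded peaks, and the 2347 highest peaks of either replicate alone. The number of all genes with a summit, 1811, was 809 with a window of 100 bp, 2638 with 500 bp, 1254 with overlap of the interval, 992 with the 1173 highest peaks, and 1784 to 1711 with 1 replicate left out. The count of U6 genes, 8, ranged from 7 to 8. The median offset of the 5 genes, -48 bp, was -55 without replicate 1 and -49 without replicate 2. With 1 replicate left out, ranks ranged from 1 to 2 (W05B2.8), 6 to 7 (rpr-1), 23 to 24 (mrpr-1), 26 to 27 (K11H12.t1) and 32 to 37 (F54D8.7). The largest change of a summit was at rpr-1, from -44 to -25 bp. No result changed its direction. No paired analysis was possible because there is only 1 group. Limits are that depth is unknown, that the scale of the signal is not given, that peaks of identical copies depend on how reads were placed, and that the tagged protein came from a transgene.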

Other observations

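The combination of the distal element and TATAA with 23 bases between also stood before genes that are not annotated as U6, RNase P, RNase MRP or tRNA genes. Sequences of 3 of them are shown, with the same capitals: the snoRNA gene ZK994.7 (chrV:8500479-8500578, plus strand), the snoRNA gene W05B2.9 (chrIII:10976747-10976846, minus strand) and the non-coding RNA gene lfor-2 (chrII:14641616-14641715, minus strand).
ZK994.7: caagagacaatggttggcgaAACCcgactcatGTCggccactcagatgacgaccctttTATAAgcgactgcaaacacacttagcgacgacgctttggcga
W05B2.9: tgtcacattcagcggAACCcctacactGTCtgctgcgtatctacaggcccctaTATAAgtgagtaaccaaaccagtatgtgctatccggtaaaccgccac
lfor-2: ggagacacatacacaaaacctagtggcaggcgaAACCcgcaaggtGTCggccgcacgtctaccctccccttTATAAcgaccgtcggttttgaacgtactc

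ZK994.7 had the highest peak of these, with a signal of 5205 (rank 4) and a summit at -43 bp, and its AACC began at -80 and its TATAA at -42. W05B2.9 had a signal of 48.1 (rank 1381) at -64 bp, with AACC at -85. It is the nearest thresholded peak upstream of W05B2.8, 12814 bp away. In both snoRNA genes the combination stands farther from the annotated 5′ end than in the 5 genes, where AACC began at -68 to -66. At lfor-2 and lfor-1, AACC began at -67 and TATAA at -29, as in W05B2.8 and F54D8.7. Their nearest summits lay inside the gene, at 61 bp for lfor-2 (signal 152, rank 197) and 105 bp for lfor-1 (signal 135, rank 249). B0478.25, a non-coding RNA gene with AACC at -92, had a peak only in the relaxed lists (pooled signal 20.4, rank 4145). Which polymerase transcribes these genes was not measured.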
